A study of Homo sapiens with 18 samples.

Results

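Mammalian mitochondria keep a small circular genome that encodes core subunits of the respiratory chain and of ATP synthase, while most subunits come from the nucleus. The genome is read as long polycistronic RNAs, which are cut at the tRNAs that lie between the genes, and the level of each mature mRNA then depends on its own processing and stability as well as on transcription. Complex III passes electrons to cytochrome c, complex IV passes them on to oxygen, and complex V uses the resulting proton gradient to make ATP. The transcripts described here are the 6 mitochondrially encoded mRNAs of these complexes: ENST00000361789 (MT-CYB) of complex III, ENST00000361624 (MT-CO1), ENST00000361739 (MT-CO2) and ENST00000362079 (MT-CO3) of complex IV, and ENST00000361899 (MT-ATP6) and ENST00000361851 (MT-ATP8) of complex V. They were chosen by identifier, and all 6 were among the 35246 transcripts of the deposited table.

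The RNA came from 22RV1, an established human prostate cancer line that carries the androgen receptor and its splice variants. The series studies covalent inhibitors directed at cysteines of those variants, and UT-143 is the compound tested here. Cells in RPMI with 10% FBS received DMSO (vehicle, 3 libraries) or 10 µM UT-143 (3 libraries) for 20 to 24 hours, and the 12 ATAC-seq samples of the series were not analysed here. The comparison asks how transcript levels differ after exposure to the compound. The labels number the libraries without naming separate cultures. The p-values therefore reflect only how far these libraries differ among themselves, which may be technical. Values are CPM, reads of a transcript relative to the total of its library, rounded by the authors to whole numbers. The number of reads behind them is unknown, but the lowest value of the 6 transcripts in any library was 917 CPM, so rounding moves none of them by more than 0.055%.

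One library stands apart. Over all transcripts on the log2(CPM + 1) scale, UT-143 replicate 3 had Pearson correlations of 0.816 to 0.895 with the other 5 libraries, which correlated with each other at 0.953 to 0.993. Results that rest on UT-143 replicate 3 are therefore given with and without it. In bulk RNA, fewer mitochondrial transcripts per cell and a larger pool of other RNA cannot be told apart from CPM.

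All 6 transcripts were abundant. In CPM, which are not corrected for length, MT-CO1 had the highest value of the table in every library, and MT-ATP8, the lowest of the 6, ranked between 14 and 35. Their summed level was 35402, 37133 and 45184 CPM in vehicle replicates 1, 2 and 3. The UT-143 libraries held 44575 CPM (replicate 1), 48403 CPM (replicate 2) and 35371 CPM (replicate 3), so the groups overlapped. The sum made 4.40 ± 0.58% of all listed CPM in vehicle and 4.73 ± 0.80% after UT-143 (SD, n = 3 each). Vehicle replicate 3 was the highest and vehicle replicate 1 the lowest vehicle library for each of the 6, and UT-143 replicate 2 was above UT-143 replicate 1 for each of them. Among these 5 libraries the 6 transcripts thus kept 1 order within a treatment group, though MT-ATP8 was nearly equal in UT-143 replicates 1 and 2 (1300 and 1302 CPM). All 7 mitochondrially encoded complex I transcripts had that order too, so it is not particular to the 6. Its share over all transcripts was not computed. In UT-143 replicate 3 the 6 did not move together.

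In UT-143 replicates 1 and 2, each of the 6 transcripts was above its vehicle mean. The mean of these 2 libraries was 1.14-fold (MT-CO1, MT-CYB and MT-ATP8) to 1.33-fold (MT-CO2) the vehicle mean. The share of all transcripts above their vehicle mean in both was not computed. UT-143 replicate 3 split the 6: MT-CO2 and MT-CO3 were above the vehicle mean there and the other 4 below it. With all 6 libraries, none of the 6 passed an adjusted p under 0.05 in limma, and 1 (MT-CO2) had an unadjusted p under 0.05. Over the whole table, 1.29% of transcripts were called higher and 2.08% lower at that adjusted threshold, and 10.7% were higher at an unadjusted p under 0.05. The median change of the 6 was 0.11 on the log2(CPM + 1) scale, against -0.058 over all transcripts. Without UT-143 replicate 3 the 6 changes ran from 0.19 to 0.42, with a median of 0.25 against -0.018 over all transcripts. Again none passed the adjusted threshold and 1 (MT-CO2) had an unadjusted p under 0.05, where 8.65% of all transcripts were called higher, 14.6% were called lower and 17.0% were higher without adjustment. The median of the 6 depended on the libraries. It was 0.0012 without vehicle replicate 1, 0.067 without vehicle replicate 2, 0.27 without vehicle replicate 3, 0.062 without UT-143 replicate 1 and 0.030 without UT-143 replicate 2, and in the 3 of these settings with the lowest medians, 3 of the 6 changes were above 0. Under quantile normalization the median was 0.0069, but this method sets the values of the most abundant rows by their rank. MT-CO1 and MT-ATP6 kept ranks 1 and 6 in every library, so their changes were 0 by construction. That median can therefore not show whether the 6 shifted. Trimmed mean and median-of-ratios scaling moved the median change of all transcripts up by about as much as it lay below 0, to 0.0050 and 0.0055, and under both the 6 changes were above 0.

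**Figure D1:**
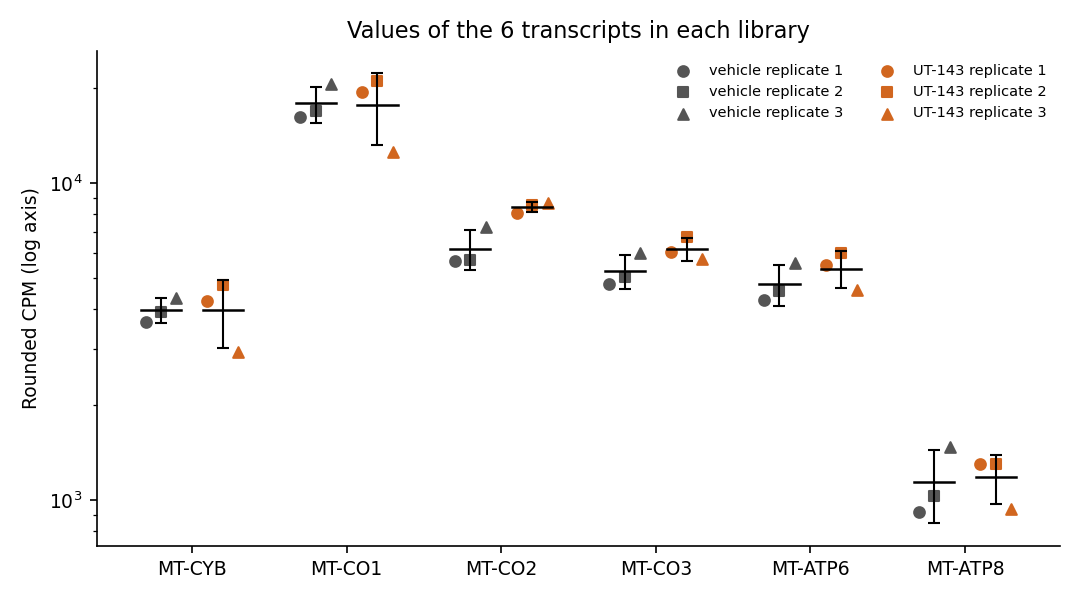
Rounded CPM (log axis) of the 6 transcripts in the 3 vehicle (grey) and 3 UT-143 (orange) libraries; symbols mark the replicate number, horizontal lines the group mean and bars the SD. MT-CO2 is the transcript whose UT-143 values all lie above its vehicle values, and for MT-CO1 and MT-CYB UT-143 replicate 3 is the lowest of the 6 libraries.

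Complex IV, cytochrome c oxidase, has its catalytic core made of the 3 mitochondrial subunits. MT-CO1 carries the haem and copper centre where oxygen is reduced. Its gene lies at positions 5904 to 7445 of the mitochondrial chromosome (RefSeq, GRCh38.p14). MT-CO1 was at 16115, 16879 and 20479 CPM in vehicle and at 19436, 21046 and 12518 CPM after UT-143 (each in the order of replicates 1, 2 and 3). UT-143 replicate 1 lay within the vehicle range, replicate 2 just above it and replicate 3 below every vehicle library. The group means were 17824 ± 2331 and 17667 ± 4531 CPM (SD, n = 3 each). The log2 change was -0.040 ± 0.25 (SE; limma, adjusted p = 0.93). Without UT-143 replicate 3 it was 0.19 ± 0.13 (SE; limma, adjusted p = 0.33).

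MT-CO2 carries the copper site that takes electrons from cytochrome c, and its gene lies at positions 7586 to 8269. It was at 5657, 5712 and 7252 CPM in vehicle and at 8037, 8501 and 8646 CPM after UT-143. The groups did not overlap, and UT-143 replicate 3 was the highest of all. MT-CO2 was the only 1 of the 6 with all UT-143 values on one side of the vehicle values, where 13.1% of all transcripts had all of them above and 22.3% all below. The means were 6207 ± 905 and 8395 ± 318 CPM (SD, n = 3 each), a ratio of 1.35. The log2 change of 0.44 (standard error 0.16) did not pass the threshold (limma, adjusted p = 0.15, unadjusted p = 0.030). Leaving out vehicle replicate 1 or 2 or UT-143 replicate 1 or 2 gave unadjusted p-values of 0.078, 0.076, 0.058 and 0.051 in limma. Leaving out vehicle replicate 3 gave 0.0039 (limma, adjusted p = 0.15), and leaving out UT-143 replicate 3 gave 0.038. Of all transcripts, 92.5% had a lower change with all 6 libraries. Without UT-143 replicate 3 the change was 0.42 ± 0.14 (SE; limma, adjusted p = 0.098). With robust moderation and without that library, a setting chosen after seeing the data, MT-CO2 passed at an adjusted p of 0.019 in limma, where 13.7% of all transcripts were called higher. The authors' deposited table gives a ratio of 1.35 and an unadjusted p of 0.041 for MT-CO2. Adjusted by Benjamini-Hochberg over the 35054 numeric p-values of the authors' deposited table, that becomes 0.27.

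MT-CO3, a core subunit without a redox centre, is encoded at positions 9207 to 9990. Its values were 4814, 5037 and 6036 CPM in vehicle and 6055, 6757 and 5748 CPM after UT-143. UT-143 replicates 1 and 2 were above all vehicle libraries, replicate 1 by little, and replicate 3 lay within the vehicle range. The change was 0.23 ± 0.15 (SE; limma, adjusted p = 0.36), and 0.28 ± 0.13 (SE) without UT-143 replicate 3 (limma, adjusted p = 0.19). With replicate 3 left out, MT-CO2 and MT-CO3 were the 2 of the 6 whose groups did not overlap, both higher. In the whole table, 20.7% of transcripts had UT-143 replicates 1 and 2 above all vehicle values and 27.0% had both below.

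MT-CYB encodes cytochrome b, the only mitochondrially encoded subunit of complex III, which holds the sites where ubiquinol and ubiquinone react. The gene lies at positions 14747 to 15887, apart from the other 5. MT-CYB was at 3636, 3926 and 4346 CPM in vehicle and at 4235, 4783 and 2924 CPM after UT-143. As for MT-CO1, UT-143 replicate 3 was below all other libraries. The means were 3969 ± 357 and 3981 ± 955 CPM (SD, n = 3 each), and the log2 change was -0.022 ± 0.22 (SE; limma, adjusted p = 0.96). Without UT-143 replicate 3 the change was 0.19 ± 0.11 (SE; limma, adjusted p = 0.28).

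The complex V mRNAs MT-ATP8 (positions 8366 to 8572) and MT-ATP6 (positions 8527 to 9207) overlap by 46 bases, which is 22.2% of MT-ATP8, and are carried on 1 bicistronic mRNA. MT-ATP6 encodes the membrane subunit that forms the proton path against the rotating ring, and MT-ATP8 a small membrane subunit of the peripheral part. How reads in the shared bases were counted is not given in the sources used here, so the 2 values may not be independent. MT-ATP6 was at 4263, 4549 and 5596 CPM in vehicle and at 5512, 6014 and 4598 CPM after UT-143. MT-ATP8 was at 917, 1030 and 1475 CPM in vehicle and at 1300, 1302 and 937 CPM after UT-143. Both groups overlapped for both transcripts. The log2 change was 0.16 ± 0.18 (SE) for MT-ATP6 and 0.062 ± 0.23 (SE) for MT-ATP8 (limma, adjusted p = 0.55 and 0.86). The changes without UT-143 replicate 3 were 0.27 ± 0.14 (SE) for MT-ATP6 and 0.22 ± 0.23 (SE) for MT-ATP8 (limma, adjusted p = 0.24 and 0.53). The change of MT-ATP6 was 0.078 without UT-143 replicate 2, 0.082 without vehicle replicate 1 and 0.28 without vehicle replicate 3. That of MT-ATP8 was -0.080 without vehicle replicate 1, 0.0039 without vehicle replicate 2, 0.26 without vehicle replicate 3, -0.016 without UT-143 replicate 1 and -0.017 without UT-143 replicate 2. MT-ATP8 had the widest spread of the 6 in vehicle, a coefficient of variation of 25.9% against 8.99% to 14.6% for the other 5.

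Levels can be compared between genes only per length, here as CPM per kilobase of the RefSeq gene. In vehicle, MT-CO1 was at 11559 ± 1511, MT-CO2 at 9075 ± 1324, MT-ATP6 at 7052 ± 1031, MT-CO3 at 6755 ± 830.1, MT-ATP8 at 5510.5 ± 1425 and MT-CYB at 3479 ± 313 CPM per kilobase (SD, n = 3). Neighbours in this order overlapped in range over the vehicle libraries, with 2 exceptions. The lowest value of MT-CO2, 8270.5, was just above the highest of MT-ATP6, 8217, and the highest of MT-CYB, 3809, was below the lowest of MT-ATP8, 4430.0. Within each library the order was steadier than these ranges. It was the same in 5 of the 6 libraries. The exception was UT-143 replicate 3, where MT-CO2 stood above MT-CO1 and MT-CO3 above MT-ATP6. MT-ATP6 and MT-ATP8 share 1 mRNA and 46 bases, so their difference per kilobase cannot be read as a difference in mRNA level. The level of MT-CO1 per kilobase over that of MT-CO2 was 1.25 to 1.31 in vehicle. After UT-143 it was 1.07 in replicate 1, 1.10 in replicate 2 and 0.64 in replicate 3, all below the vehicle range.

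Ratios between the 6 transcripts within a library do not depend on how libraries are scaled to each other, and among MT-CO1, MT-CO2, MT-CO3 and MT-ATP6 they varied less in vehicle than the levels. MT-CO1 over MT-CO3 was 3.35, 3.35 and 3.39 in vehicle, where the coefficients of variation of the levels were 13.1% and 12.3%. After UT-143 it was 3.21, 3.11 and 2.18, below vehicle in all 3 libraries. MT-CO1 over MT-CO2 was 2.85, 2.96 and 2.82 in vehicle and 2.42, 2.48 and 1.45 after UT-143. Of the 15 pairs of the 6 transcripts, 8 had ratios that did not overlap between the groups, and 8 did so without UT-143 replicate 3. Among all pairs of transcripts that averaged 20 CPM or more, 46.1% had ratios that did not overlap, and 63.0% without UT-143 replicate 3, so the count of 8 is near the background or below it and is no result about these transcripts. The pairs also share members. All 5 pairs with MT-CO2 were among them, each with relatively more MT-CO2 in every UT-143 library. The others were MT-CO1 against MT-ATP6 and against MT-CO3, with relatively less MT-CO1, and MT-CO3 against MT-CYB, with relatively more MT-CO3. MT-CO1 over MT-CYB overlapped between the groups, at 4.30 to 4.71 in vehicle and 4.28 to 4.59 after UT-143. With 3 libraries per group an exact permutation test cannot go below p = 0.1 (2-sided), the p of each of those 8 pairs (0.188 adjusted over the 15 pairs), so none of these differences can pass 0.05.

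Against the mean of the other 5, MT-CO2 was at 0.44 ± 0.043 on the log2 scale in vehicle and at 0.80 ± 0.30 after UT-143 (SD, n = 3 each). The values after UT-143 were 0.65, 0.61 and 1.15 in replicates 1, 2 and 3, all above the highest vehicle value of 0.48. MT-CO1 went the other way, from 2.26 ± 0.029 in vehicle to 2.05 ± 0.23 after UT-143, with each UT-143 library below each vehicle library. MT-CO2 is part of the mean that MT-CO1 is set against, so a higher MT-CO2 lowers the ratio of MT-CO1 by construction. The shifts of MT-CO2 and MT-CO1 are therefore not independent. The exact permutation test gave p = 0.1 for each of this pair (2-sided, n = 3 per group, 0.3 adjusted over the 6). Without UT-143 replicate 3 the shifts were smaller, 0.19 for MT-CO2 and -0.086 for MT-CO1, and the groups still did not overlap. The other 4 overlapped between groups. How often such a ratio fails to overlap over all transcripts was not computed. For pairs of transcripts it was 46.1%, and 63.0% without UT-143 replicate 3, so the lack of overlap is no result by itself. This ratio differed least between the groups for MT-ATP6, by 0.029, with an SD of 0.0058 in vehicle and 0.031 after UT-143 (n = 3 each). The ratio is not corrected for length, so only its differences between libraries can be read.

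**Figure D2:**
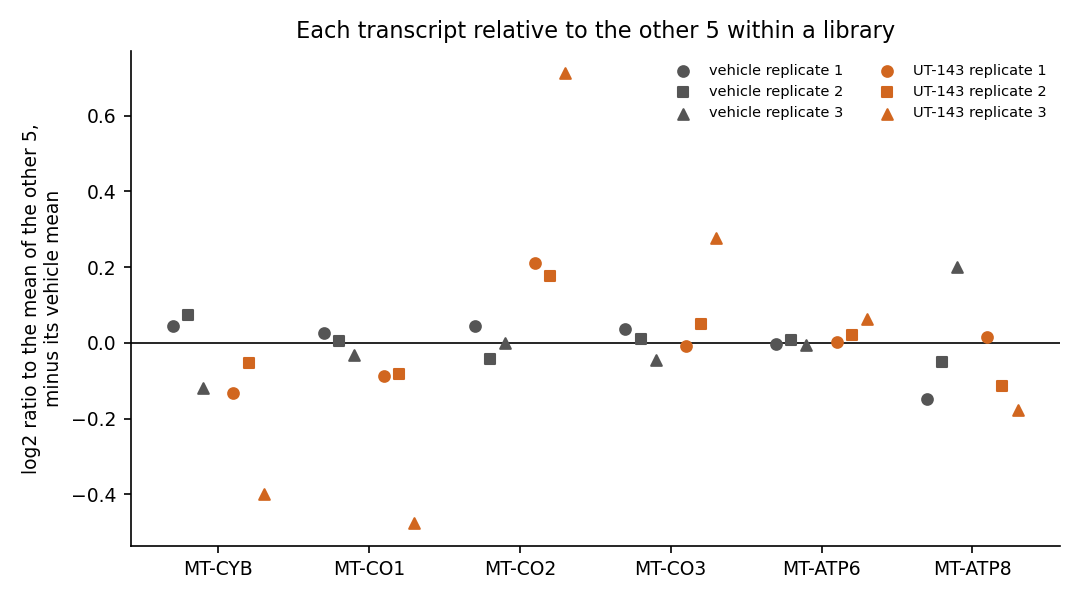
Log2 ratio of each transcript to the mean of the other 5 in the same library, shown as the difference from the vehicle mean of that ratio; symbols mark the replicate number, grey is vehicle and orange UT-143. The UT-143 points of MT-CO2 lie above and those of MT-CO1 below all their vehicle points, and UT-143 replicate 3 is the farthest from 0 in each.

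As shares of the summed CPM of the 6, MT-CO1 made 45.3% to 45.5% in vehicle and 43.6%, 43.5% and 35.4% after UT-143 (replicates 1, 2 and 3). MT-CO2 made 15.4% to 16.0% in vehicle and 18.0%, 17.6% and 24.4% after UT-143. These shares are not corrected for length. They are parts of the same sum, so a higher share of MT-CO2 lowers the shares of the others. How often such shares fail to overlap over all transcripts was not computed. The share of MT-CO2 was above and that of MT-CO1 below every vehicle library in the 3 UT-143 libraries, and farthest from vehicle in the library that stands apart.

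The 7 mitochondrially encoded mRNAs of complex I, the NADH dehydrogenase that feeds electrons into the chain, are the closest comparison. None of the 7 passed an adjusted p under 0.05 in limma with 6 libraries, and 2 (MT-ND3 and MT-ND6) were higher at an unadjusted p under 0.05. Their changes ran from -0.95 (MT-ND4L) to 0.72 (MT-ND3), a wider range than the -0.040 to 0.44 of the complex III, IV and V transcripts, with a median of -0.031. When UT-143 replicate 3 was left out they ran from -0.14 to 0.72, with 6 of the 7 above 0 and a median of 0.23, beside 0.25 for the complex III, IV and V transcripts. MT-ND3 was at 509, 562 and 707 CPM in vehicle and at 935, 1004 and 961 CPM after UT-143 (limma, adjusted p = 0.058, and 0.0504 without UT-143 replicate 3). Like MT-CO2, it was above vehicle in all 3 UT-143 libraries, as was MT-ND6, which is named after its values were seen. MT-ND4L was at 979, 1098 and 1341 CPM in vehicle and at 999, 1050 and 191 CPM after UT-143. The change of MT-ND4L was -0.14 without replicate 3 (limma, adjusted p = 0.54). Relative to UT-143 replicates 1 and 2, replicate 3 held 0.19 to 1.03 times the level of the complex I transcripts and 0.62 to 1.05 times that of the other 6. It was the lowest of the 6 libraries for 5 of the 7 complex I transcripts and for 2 of the 6 others. How often it was the lowest over all transcripts was not computed. Low values were most frequent in UT-143 replicate 3, where 6674 transcripts did not exceed 5 CPM. Elsewhere that number lay between 2049 (vehicle replicate 1) and 2868 (UT-143 replicate 2). The lowest mitochondrial value was 191 CPM, so these numbers of low values do not bear on the mitochondrial transcripts. Without the share over all transcripts, the counts of 5 and 2 cannot be read as particular to mitochondrial transcripts. Whether the 2 sets differ in their response was not tested.

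**Figure D3:**
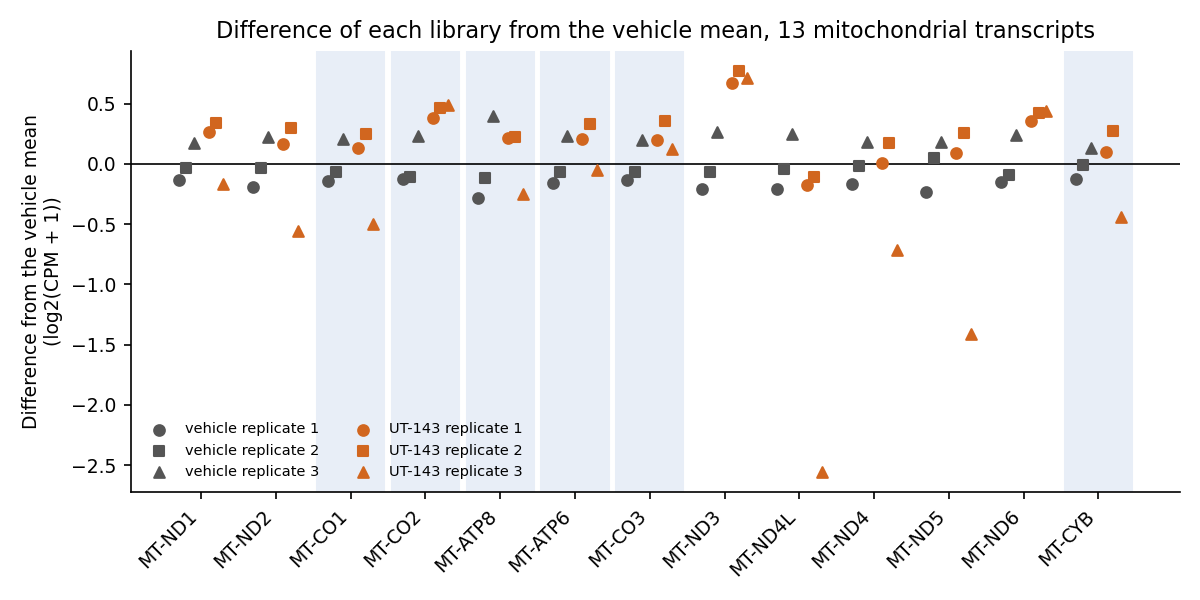
Difference of each library from the vehicle mean in log2(CPM + 1) for the 13 mitochondrial transcripts, in their order along the genome; shaded columns are the complex III, IV and V transcripts, symbols mark the replicate number, grey is vehicle and orange UT-143. UT-143 replicates 1 and 2 lie close together, and UT-143 replicate 3 runs from -2.56 for MT-ND4L to 0.71 for MT-ND3.

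Seen against all transcripts, the 6 lay at the top of the abundance range and well inside the range of changes.

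**Figure D4:**
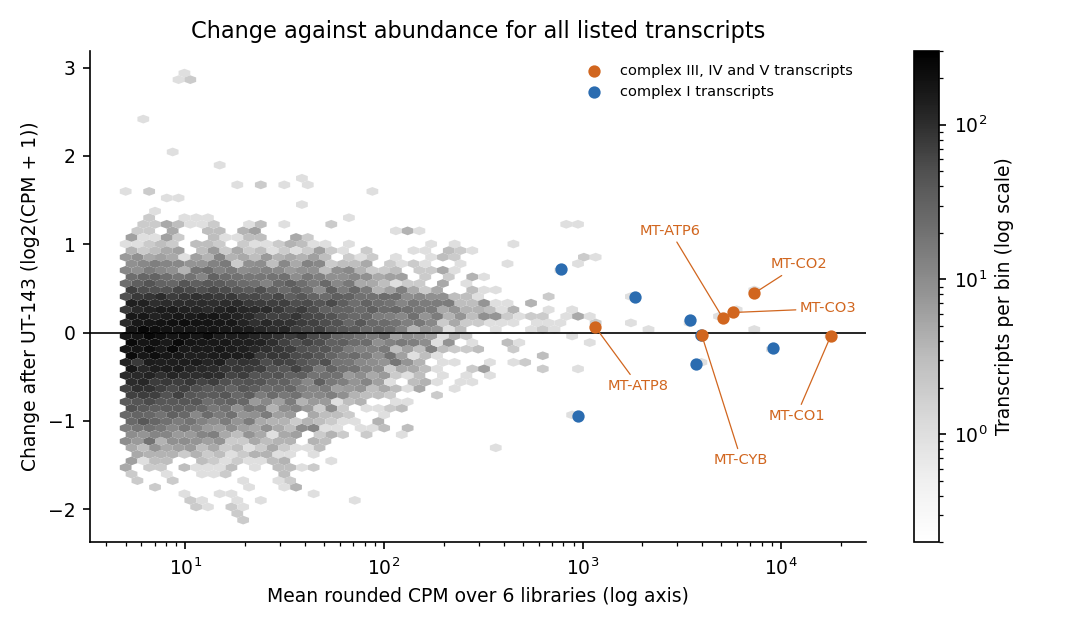
Change after UT-143 on the log2(CPM + 1) scale against mean rounded CPM (log axis) for all 35246 listed transcripts, as bins shaded by their number; orange points are the complex III, IV and V transcripts and blue points the complex I transcripts. The orange points lie between -0.040 and 0.44, to the right of nearly all other transcripts.

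By their profile over the 6 libraries, the transcripts nearest to the mean of the 6 were ENST00000536684.3 (Pearson's r = 0.998) and ENST00000514057.1 (r = 0.981). They were found among 10895 rows with a mean of at least 20 CPM, the 13 mitochondrial mRNAs left out, over 6 libraries that all rows share. Nuclear copies of mitochondrial genes, where listed, were not left out. Whether reads shared with the 6 enter these 2 profiles was not tested. ENST00000536684.3 was at 1445, 1505 and 1875 CPM in vehicle and at 1852, 2015 and 1462 CPM after UT-143. The deposited table pairs no identifier with a gene, so these are given without names. Each of the 6 was also set against the mean profile of the other 5: r was 0.99 for MT-ATP6, 0.90 for MT-ATP8, 0.85 for MT-CO3, 0.75 for MT-CO1, 0.74 for MT-CYB and 0.40 for MT-CO2. Over these 6 libraries MT-CO2 was the least like the rest. UT-143 replicate 3 differed from the mean of UT-143 replicates 1 and 2 by 0.065 for MT-CO2 and by -0.15 to -0.69 for the other 5 (log2(CPM + 1)). The correlations were not computed without UT-143 replicate 3, so the place of MT-CO2 may rest on that library. The nuclear genome holds copies of these genes. By symbol, RefSeq lists 219 copies of the 6, from 4 of MT-ATP8 to 58 of MT-CO1, with 45 of MT-CYB. RefSeq lists 5 of them in a row on chromosome 1 (GRCh38.p14): MTCO1P12 at 631074 to 632616, MTCO2P12 at 632757 to 633438, MTATP8P1 at 633535 to 633741, MTATP6P1 at 633696 to 634376 and MTCO3P12 at 634376 to 634922. How reads that match both a mitochondrial gene and such a copy were counted is not given in the sources used here, so all levels of the 6 are uncertain to that extent. Their part in the changes was not tested.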

How the data were processed

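The 6 RNA-seq libraries of 22RV1 (3 vehicle, 3 UT-143) were used. Tools listed in the submitters' processing notes are STAR 2.7.10a, HOMER and FastQC, with genome build hg38. The sources used here do not give the counting of reads per transcript, the use of strand or the treatment of shared reads. The deposited table holds CPM that the authors rounded to whole numbers, handled as a normalized score and not as counts, so no count model was run. It also holds the deposited ratio and p-value of the authors' own comparison. No listed transcript sums to under 30 CPM over the 6 libraries. The table pairs no identifier with a gene: symbols of the 6 transcripts came with their identifiers, those of complex I from general knowledge of Ensembl identifiers. Gene positions and lengths are from RefSeq (GRCh38.p14).

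Values were fitted as log2(CPM + 1) over all 35246 transcripts with limma 3.58.1 in R 4.3.3, with group as the only term, a mean-variance trend, Benjamini-Hochberg adjustment and a threshold of 0.05. A filter of 1 CPM in at least 3 libraries removed 0 transcripts. The fit was tested on simulated data. Ratios within a library were compared by exact permutation tests (SciPy 1.17.1). All 6 transcripts are named, with the highest and the lowest change of complex I and the 2 transcripts of most similar profile. The transcripts and lists were chosen with earlier results of these data known. Figures were drawn with Matplotlib 3.10.9.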

Additional observations from a re-analysis of the deposited data

How the results depend on the processing

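The labels give both groups the replicate numbers 1 to 3, but the libraries share only a number. Deviations from the group means correlated at -0.41, 0.52 and 0.039 within numbers 1, 2 and 3, and the best match of a library was not always its own number. With the replicate block, 0 of the 6 transcripts were called higher and 0 lower (limma; unadjusted p under 0.05 for 1), and over all transcripts 0 were called higher and 0 lower, against 456 and 732 without the block. The same 0 and 0 came from every other setting but 1: robust moderation without UT-143 replicate 3 called 1 higher (MT-CO2). Complex I counts of higher calls went from 0 to 1 with only transcripts of a mean of at least 20 CPM, where 366 of 10908 transcripts were called higher. They also went to 1 with median-of-ratios scaling without UT-143 replicate 3, where 5297 of all 35246 were called higher. With robust moderation without that library they went to 3, where 13.7% of all transcripts were called higher. Both settings that combine a choice with leaving out UT-143 replicate 3 were chosen after seeing the data. The change of MT-CO2 stayed above 0 throughout, at 0.38 to 0.56 except under quantile normalization (0.20), with adjusted p-values from 0.019 to 0.38 in limma. An unadjusted p under 0.05 was reached by 0 of the 6 under trimmed mean, median-of-ratios and quantile scaling and without vehicle replicate 1 or 2 or UT-143 replicate 1 or 2. Without vehicle replicate 3 it was reached by 2, MT-CO2 and MT-CO3, both higher, where 2449 of all 35246 transcripts were higher at that threshold. With robust moderation without UT-143 replicate 3 it was reached by 3 of the 6, where 6575 of all transcripts were higher. Over all transcripts, leaving out UT-143 replicate 3 raised the calls to 3048 higher and 5158 lower, and leaving out any 1 of the other 5 libraries gave 0 and 0. The calls were 699 and 859 with trimmed mean scaling, 696 and 879 with median-of-ratios scaling and 1399 and 2009 with quantile normalization. Without UT-143 replicate 3 they were 5297 and 5899 with median-of-ratios scaling and 4843 and 6925 with robust moderation.

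The near-zero changes turned sign. Trimmed mean, median-of-ratios and quantile scaling gave 0.047, 0.048 and 0.014 for MT-CYB, and the first 2 gave 0.029 and 0.030 for MT-CO1. Leaving out 1 library gave -0.17 to 0.19 for MT-CYB, -0.185 to 0.19 for MT-CO1 and -0.080 to 0.26 for MT-ATP8, with the highest of the first pair without UT-143 replicate 3. Without that library, median-of-ratios scaling gave 0.21 and 0.22, and robust moderation 0.19 and 0.19, for MT-CYB and MT-CO1. MT-ATP8 was at -0.16 under quantile normalization, which fixes the values of the most abundant rows by rank. The ratio of MT-ATP8 to the other 5 shifted by -0.17 to 0.0078 when 1 library was left out, the highest without vehicle replicate 3. The cause was not tested. The unknown number of reads limits all statements on precision.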

Other observations

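The difference of UT-143 replicate 3 from the mean of UT-143 replicates 1 and 2 was graded over the 13 mitochondrial transcripts. On the log2(CPM + 1) scale it was 0.065 for MT-CO2, -0.15 for MT-CO3, -0.32 for MT-ATP6, -0.47 for MT-ATP8, -0.62 for MT-CYB and -0.69 for MT-CO1, and it reached -2.42 for MT-ND4L. Its Pearson correlation with log2 gene length was -0.061 over the 13 transcripts, -0.64 over the 12 without MT-ND4L and -0.24 over the 6 of complexes III, IV and V. MT-ND4L was left out after its value was seen, so the -0.64 cannot be read as a relation with length. These correlations are across transcripts of the same 3 libraries, some of which overlap in the genome, and describe 1 library.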
